A study of Mus musculus with 45 samples.

Results

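The mitochondrial ribosomal protein genes were examined in a brain RNA-seq series of Shank3 mutant mice. Members were the protein-coding genes of the deposited count table whose symbol starts with Mrpl (large subunit) or Mrps (small subunit) followed by a number, with a mean normalized count of at least 10 over the samples. This gave 78 of the 18135 genes in the table, 49 of them Mrpl and 29 Mrps, spread over 17 chromosomes, and no gene was lost to the limit: the least abundant members, Mrpl23 and Mrps28, still had means of 112 and 139. Mrpl23-ps1, a processed pseudogene with a mean of 336, was not counted.

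The samples came from male C57BL/6J mice of 13 weeks. In each of 3 regions (prefrontal cortex, here cortex, hippocampus and striatum) there were 5 wild-type (WT) samples, 5 from heterozygous mutants (Shank3-HT) and 5 from mutants labelled knock-out (Shank3-HM, written KI in the table's columns), so 45 in all. The mutant allele lacks Shank3 exons 14 to 16, and the labels name no other allele and no treatment for any group. The study's text gives 5 mice for each region and genotype, while neither it nor the labels say whether 1 mouse gave all 3 regions or whether the sample numbers mark mice.

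Mitochondrial ribosomes translate the few proteins that mitochondrial DNA encodes, all of them core parts of the respiratory chain and ATP synthase. Their RNAs are made inside the organelle, but every protein of the ribosome is encoded in the nucleus, translated in the cytosol and imported. The large subunit forms the peptide bond and holds the exit tunnel, which sits at the inner membrane, and the small subunit reads the messenger RNA. Inherited defects of several of these proteins cause human mitochondrial disease, often with brain involvement.

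Totals of normalized counts lay between 26118607 and 29568983 per sample, and the number of reads behind them is unknown, so no counting interval is given. Shank3 itself separated the groups in the direction of their labels: every Shank3-HM sample lay below every WT sample of its region, by −0.98 in cortex, −1.06 in hippocampus and −1.11 in striatum on the log2 scale. Shank3 in Shank3-HT samples was lower by −0.38, −0.43 and −0.50, and the first of these did not pass the test (limma, adjusted p = 0.288). Spiny projection neuron markers summed to between 189441 and 257471 in WT striatum and to between 5983 and 7136 in WT cortex, while hippocampal markers summed to between 25469 and 35463 in WT hippocampus and to between 6448 and 8326 in WT cortex. Some libraries stood apart. Cortex Shank3-HM replicate 2 had a striatal marker sum of 51473 against 6040 to 7747 in the others of its group. Choroid plexus markers, which are no part of the striatum proper, summed to 69822 in striatum Shank3-HT replicate 5 against 482 to 1616 in the others of its group, and in hippocampus they ran from 1406 to 125781 over all samples, with the highest sum in WT replicate 4; their part in the results was not tested. In hippocampus WT replicate 1, 75 of the 78 members lay above the WT mean of the region, and results of the WT hippocampus are given also without it where that changes a call or a count.

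**Figure D1:**
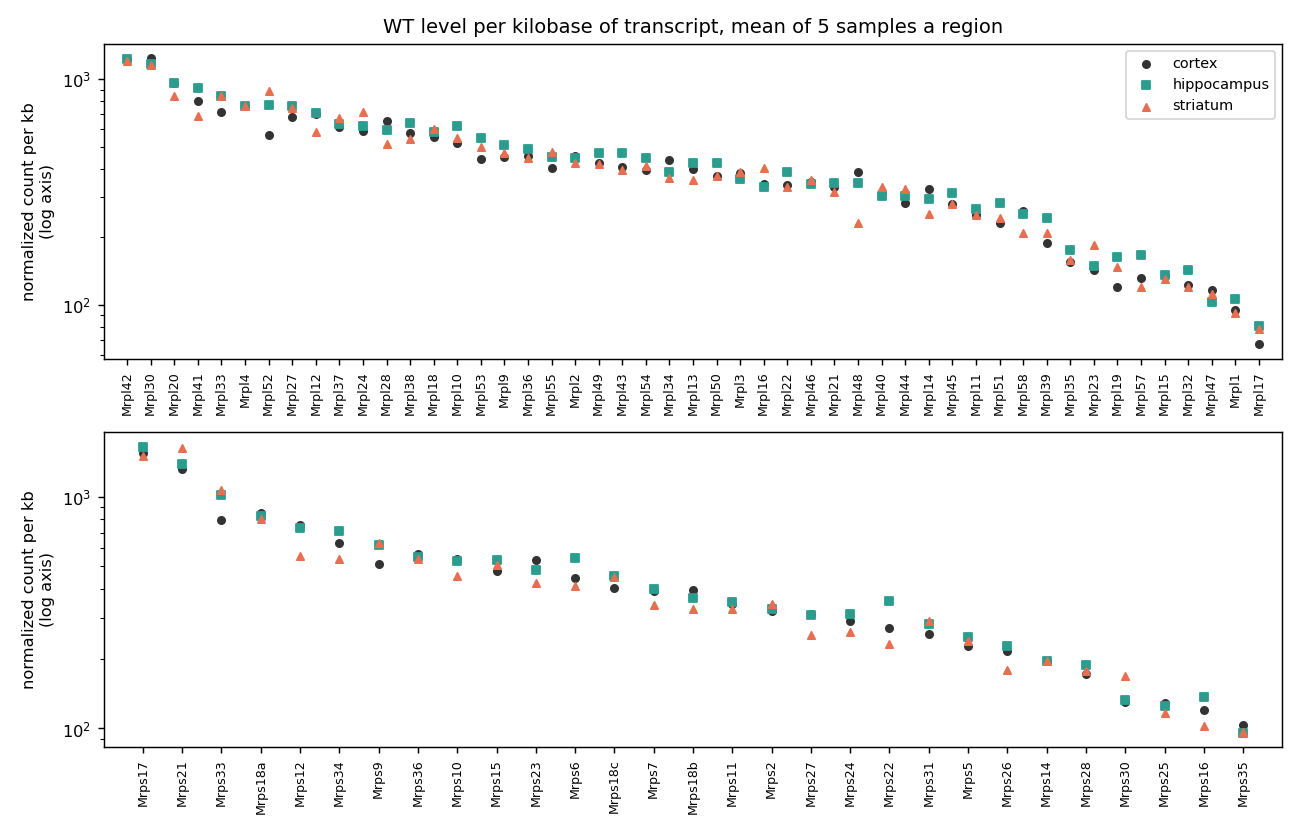
Normalized count per kilobase of transcript (log axis) of each Mrpl gene (top) and Mrps gene (bottom), with 1 symbol per region for the mean of 5 WT samples. Averaged over regions, the Mrpl genes run from 75.03 to 1220 and the Mrps genes from 98.8 to 1561, and the regions of a gene lie close together beside the distance between genes.

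To compare levels between genes, normalized counts were divided by transcript length, taken as the median length of the gene's principal protein-coding transcripts in the GENCODE annotation. Large subunit genes had a median of 394 normalized counts per kilobase and small subunit genes 363, with ranges that nearly coincide. The highest levels per kilobase were those of Mrps17 (1561), Mrps21 (1442), Mrpl42 (1220) and Mrpl30 (1188), and the lowest those of Mrpl17 (75.03), Mrpl1 (97.6) and Mrps35 (98.8). These ranks depend on the annotated length, which was 7300 bases for Mrpl17, 3493.5 for Mrpl1 and 4162 for Mrps35. Whether the annotated transcripts are the ones expressed was not tested. Genes of a single particle thus differed far more among themselves than any of them differed between regions. The spread between samples of a group was small: the residual SD on the log2 scale had a median of 0.134 over Mrpl genes and 0.125 over Mrps genes, beside 0.166 over all genes, and it was lowest for Mrpl37 (0.068) and highest for Mrpl23 (0.44).

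The first comparison asked how the regions differ in WT mice. Small differences in both directions were found, and 43 of 78 members passed the test in at least 1 pair of regions (55.1%, beside 77.3% of all genes), 26 of them in 2 pairs and Mrps22 in 3. At least 2 pairs were passed by 34.6% of members and 64.2% of all genes, and 3 pairs by 1.28% and 20.5%. With hippocampus WT replicate 1 left out, 39 members passed in at least 1 pair (50%, beside 76.1% of all genes), and Mrpl48, Mrpl52 and Mrps22 passed in 3 (3.85%, beside 19.9%). The hippocampus had 14 members higher than cortex (10 Mrpl, 4 Mrps, 17.9% of members) and 0 lower, beside 23.3% of all genes higher and 23.3% lower. The striatum had 11 members higher than cortex (14.1%) and 16 lower (20.5%), beside 30% and 29.3% of all genes. Against hippocampus, 4 members were higher in striatum (5.13%) and 26 lower (33.3%), beside 27.8% and 28.3% of all genes. A fit of only the groups compared gave 3 higher and 15 lower (19.2%) in this last pair, beside 25.1% and 25.8% of all genes. The share of members lower in striatum than in hippocampus moved with hippocampus WT replicate 1: without that library it was 20.5%, beside 27.0% of all genes. In bulk tissue, fewer cells of a type and less RNA per cell cannot be told apart, and all 10 oligodendrocyte markers were higher in hippocampus and in striatum than in cortex (medians 1.05 and 1.42 on the log2 scale). In striatum against cortex, 9 of 10 astrocyte markers were lower (median −0.29) and 7 of 10 microglia markers higher (0.26), and in hippocampus against cortex 5 of 7 inhibitory neuron markers and 5 of 8 endothelial markers were lower (−0.51 and −0.32) and all 8 choroid plexus markers higher (5.32). Between striatum and hippocampus the marker medians were 0.43 for oligodendrocytes, −0.27 for astrocytes, 0.28 for microglia and 0.37 for inhibitory neurons. For endothelial cells the median was 0.27 and for choroid plexus −4.37. The part of cell makeup in the region differences was not tested.

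The median differences between regions were small. For Mrpl genes the median was 0.09 between hippocampus and cortex, −0.01 between striatum and cortex and −0.12 between striatum and hippocampus, and for Mrps genes 0.06, −0.09 and −0.10, while the medians over all genes tested were 0.01, 0.01 and −0.00. Hippocampus WT replicate 1 carried much of the hippocampal excess. Without it the medians between hippocampus and cortex fell to 0.03 for Mrpl and −0.01 for Mrps genes, and between striatum and hippocampus they were −0.03 and −0.05. The calls moved too: without this library 10 members were higher and 6 lower in hippocampus than in cortex, and 8 were higher and 16 lower in striatum than in hippocampus. These were 12.8%, 7.69%, 10.3% and 20.5% of members, beside 22.6%, 22.6%, 26.2% and 27.0% of all genes. Of the 14 members called higher in hippocampus, 9 were kept, and Mrpl9, Mrpl19, Mrpl43, Mrpl45 and Mrpl51 were lost. Scaling all samples to equal totals, which moves the median of all genes to 0.08 between hippocampus and cortex and to −0.11 between striatum and hippocampus, gave 31 members higher and 0 lower in hippocampus than in cortex, and 1 higher and 37 lower in striatum than in hippocampus. These were 39.7%, 0%, 1.28% and 47.4% of members, beside 31%, 18.7%, 20.3% and 37.9% of all genes. Under that scaling 62.4% of all calls between hippocampus and cortex, and 34.9% of those between striatum and hippocampus, were higher, beside 50.1% and 49.5% with the deposited values. The Mrpl medians were then 0.17 and −0.23 and the Mrps medians 0.14 and −0.22, to be read beside the shifts of all genes.

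**Figure D2:**
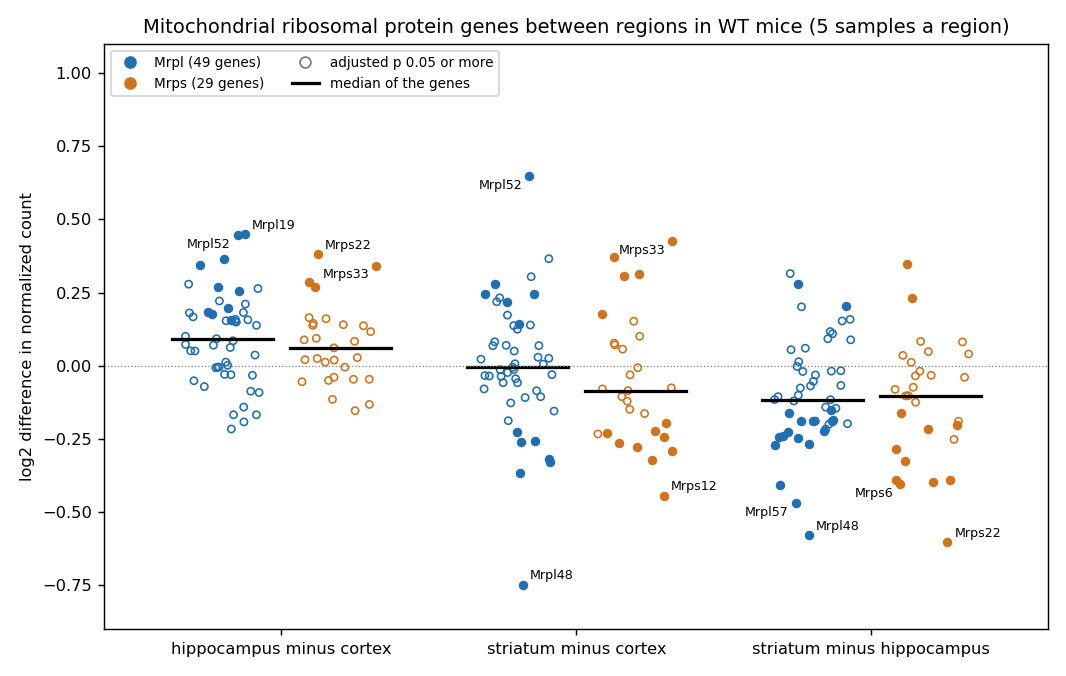
Fitted log2 difference between regions in WT mice for each of the 78 members, 1 point per gene, Mrpl and Mrps apart, filled where the adjusted p (limma) is under 0.05, with a line at the median. The 14 hippocampus and cortex calls are all higher in hippocampus, while striatum has 16 members lower and 11 higher than cortex.

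A group of 13 members was lower in WT striatum than in both other regions (16.7%, beside 18.8% of all genes). It held Mrpl12, Mrpl28, Mrpl41, Mrpl48 and Mrpl58 of the large subunit and Mrps7, Mrps10, Mrps12, Mrps18b, Mrps22, Mrps26, Mrps27 and Mrps34 of the small subunit. Without hippocampus WT replicate 1 the group held 8 members (10.3%, beside 18.5% of all genes), since Mrpl28, Mrpl58, Mrps7, Mrps10 and Mrps18b no longer passed against hippocampus. The largest difference was that of Mrpl48, a protein of the large subunit without a bacterial homologue (chr7:100545751-100608301, minus strand, GRCm38). Its normalized counts in the 5 WT samples were 1682, 1535, 1647, 1662 and 1766 in cortex, 1917, 1377, 1418, 1237 and 1506 in hippocampus, and 1066, 934, 974, 916 and 1049 in striatum. Every striatum sample lay below every sample of the other regions, also in hippocampus, where replicate 1 was the highest. The striatum mean of 988 ± 67.5 (SD, n = 5) against 1658 ± 82.7 in cortex gave a log2 difference of −0.75 (SE 0.083, limma adjusted p = 1.9e-10), and that against hippocampus was −0.58 (SE 0.083). The difference from cortex was −0.71 in Shank3-HT and −0.57 in Shank3-HM samples. Of the 31-base words in Mrpl48 transcripts, 16.6% also occur in transcripts of other genes, and 8.25% occur in those of its neighbour Rab6a.

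Mrps12, whose bacterial homologue S12 lies at the decoding centre, had 651, 623, 538, 622 and 596 normalized counts in WT cortex, 708, 496, 527, 590 and 611 in hippocampus, and 457, 398, 451, 465 and 453 in striatum. Again no striatum sample reached the lowest of the other regions. Its log2 difference was −0.44 between striatum and cortex (SE 0.078, limma adjusted p = 3.9e-06) and −0.39 between striatum and hippocampus, and it held in both mutant genotypes, by −0.29 and −0.39 against cortex in Shank3-HT and Shank3-HM samples. None of its 31-base words occurs in another gene's transcripts. Mrps27 (−0.29 against cortex and −0.29 against hippocampus) and Mrps26 (−0.27 and −0.33), both of the small subunit, also passed the test against both regions in all 3 genotypes. Mrpl12, which besides its place in the ribosome binds the mitochondrial RNA polymerase, was lower by −0.26 and −0.27 in WT mice. In Shank3-HT mice its differences were −0.12 and −0.02, neither past the test, and in Shank3-HM mice they were −0.25, which passed, and −0.07, which did not. Mrpl58, a peptidyl-tRNA hydrolase that became a ribosomal protein, was lower by −0.32 and −0.27, the latter −0.18 and not past the test without hippocampus WT replicate 1. Mrps34 was lower by −0.23 and −0.39, but 73.8% of its 31-base words are shared with other genes, mainly Mapk8ip3, so its counts are uncertain.

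Higher in WT striatum than in both other regions were 4 members, Mrpl16, Mrpl24, Mrps21 and Mrps30 (5.13%, beside 18.6% of all genes). Without hippocampus WT replicate 1 all 4 still passed against both regions, and Mrpl44 and Mrpl52 joined them (7.69%, beside 18% of all genes). Mrpl24, a protein near the exit tunnel, had 690, 701, 719, 776 and 729 normalized counts in WT cortex, 915, 685, 720, 740 and 756 in hippocampus, and 874, 846, 928, 957 and 785 in striatum. All striatum samples lay above all cortex samples, and they overlapped hippocampus through replicate 1. The log2 differences were 0.28 from cortex (SE 0.061, limma adjusted p = 0.00012) and 0.21 from hippocampus, with 0.24 and 0.25 in Shank3-HT and 0.30 and 0.23 in Shank3-HM samples, and 27.2% of its 31-base words are shared, mostly with Rrnad1. Mrps21 (0.31 and 0.23) and Mrpl16 (0.25 and 0.28) likewise passed against both regions in every genotype. Mrps30, which despite its symbol sits in the large subunit, had 441, 458, 432, 414 and 412 normalized counts in WT cortex, 452, 504, 391, 450 and 405 in hippocampus, and 614, 608, 519, 549 and 513 in striatum. All striatum samples lay above all others. Mrps30 was higher by 0.37 and 0.35, but its difference from hippocampus in Shank3-HT samples was 0.16 and did not pass.

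Lower in WT cortex than in both other regions, past the test against each, were Mrpl52, Mrps33 and Mrps9 (3.85% of members, beside 12.3% of all genes). Mrpl52 (chr14:54426909-54429756, plus strand) had 238, 257, 264, 184 and 242 normalized counts in WT cortex, 372, 305, 329, 328 and 277 in hippocampus, and 430, 332, 339, 368 and 382 in striatum. No cortex sample reached any sample of the other regions. Striatum exceeded cortex by 0.65 (SE 0.095, limma adjusted p = 1.4e-07) and hippocampus exceeded it by 0.45 (SE 0.095), with 0.56 and 0.12 in Shank3-HT and 0.58 and 0.38 in Shank3-HM samples, of which the 0.12 did not pass. Mrps33 was higher than in cortex by 0.43 in striatum and 0.34 in hippocampus, and Mrps9, with a bacterial homologue in the small subunit head, by 0.31 and 0.27. For Mrps9 the hippocampal difference was 0.12 and 0.05 in the mutant genotypes, neither past the test.

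Higher in WT hippocampus than in both other regions were 8 members, Mrpl10, Mrpl39, Mrpl43, Mrpl45, Mrpl50, Mrpl57, Mrps6 and Mrps22 (10.3%, beside 11% of all genes). Without hippocampus WT replicate 1 there were 6 (7.69%, beside 10.4% of all genes), as Mrpl43 and Mrpl45 were lost. Mrps22, one of the small subunit proteins altered in human mitochondrial disease (chr9:98588730-98601660, minus strand), was called in all 3 pairs. Its WT samples had 328, 313, 354, 335 and 290 normalized counts in cortex, 498, 386, 435, 386 and 410 in hippocampus, and 320, 258, 256, 260 and 296 in striatum. The hippocampus stood above both other regions without overlap, while striatum and cortex overlapped. The log2 differences were 0.38 between hippocampus and cortex (SE 0.093, limma adjusted p = 0.00074), −0.60 between striatum and hippocampus and −0.22 between striatum and cortex. The last was 0.08 in Shank3-HT mice and −0.13 in Shank3-HM mice, neither past the test, and the excess of hippocampus over cortex was 0.14 and not past the test in Shank3-HM mice.

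Mrpl57, in WT samples, had 462, 380, 362, 346 and 342 normalized counts in cortex, 578, 437, 451, 434 and 503 in hippocampus, and 334, 359, 347, 329 and 354 in striatum. Hippocampus lay above striatum in every sample and overlapped cortex in 1 cortex sample, and the log2 differences were −0.47 between striatum and hippocampus (SE 0.096, limma adjusted p = 5.3e-05) and 0.34 between hippocampus and cortex. Mrps6, the homologue of bacterial S6, had 396, 367, 375, 331 and 420 normalized counts in WT cortex, 521, 379, 428, 513 and 468 in hippocampus, and 300, 336, 329, 411 and 364 in striatum. The hippocampal samples were the highest on the whole, with overlap into both other regions. Mrps6 differed by 0.28 between hippocampus and cortex and by −0.41 between striatum and hippocampus, and 18.4% of its 31-base words are shared with other genes. Mrpl39 exceeded cortex by 0.37 in hippocampus. Mrpl45, which helps to hold the ribosome at the inner membrane, had the smallest called difference among those described (0.16, limma adjusted p = 0.049), and did not pass in 30 of the 45 fits that left out 1 sample (limma adjusted p 0.023 to 0.131). Mrpl44, which carries a ribonuclease III-like fold, was higher in striatum than in cortex by 0.22. It did not pass in Shank3-HT mice, nor in 1 of the 45 fits that left out 1 sample.

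Some calls held in all 3 genotypes and also without hippocampus WT replicate 1. In Shank3-HT mice, members higher and lower numbered 10 and 3 between hippocampus and cortex (22.9% and 22.1% of all genes), 11 and 11 between striatum and cortex (29.5% and 29.1%) and 7 and 16 between striatum and hippocampus (26.4% and 27.2%). In Shank3-HM mice they numbered 8 and 4 (21% and 21.2%), 12 and 14 (28.8% and 28.6%) and 9 and 17 (26.7% and 28.2%). Without striatum Shank3-HT replicate 5 the Shank3-HT counts were 13 and 10 between striatum and cortex and 9 and 14 between striatum and hippocampus, beside 28.6% and 28.4%, and 25.5% and 26.6%, of all genes. Without cortex Shank3-HM replicate 2, the Shank3-HM counts were 8 and 5 between hippocampus and cortex and 11 and 14 between striatum and cortex, beside 21.6% and 21.7%, and 29% and 29%. Higher in hippocampus than in cortex were 5 such members, Mrpl10, Mrpl39, Mrpl57, Mrps6 and Mrps33 (6.41%, beside 15.8% of all genes). Between striatum and cortex there were 8 higher (Mrpl16, Mrpl24, Mrpl52, Mrps9, Mrps21, Mrps30, Mrps31 and Mrps33) and 8 lower (Mrpl14, Mrpl34, Mrpl48, Mrpl58, Mrps12, Mrps18b, Mrps26 and Mrps27). Between striatum and hippocampus there were 3 higher (Mrpl16, Mrpl24 and Mrps21) and 11 lower (Mrpl1, Mrpl10, Mrpl41, Mrpl48, Mrpl57, Mrps6, Mrps12, Mrps22, Mrps26, Mrps27 and Mrps34). These were 10.3% and 10.3% of members between striatum and cortex, beside 23.5% and 23.8% of all genes, and 3.85% and 14.1% between striatum and hippocampus, beside 20.1% and 21.1%. Of these, Mrpl16 no longer passed between striatum and cortex in Shank3-HM mice without cortex Shank3-HM replicate 2 (0.17), nor Mrps34 between striatum and hippocampus in Shank3-HT mice without striatum Shank3-HT replicate 5 (−0.19). The largest of these in WT mice were Mrpl48 and Mrpl52.

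**Figure D3:**
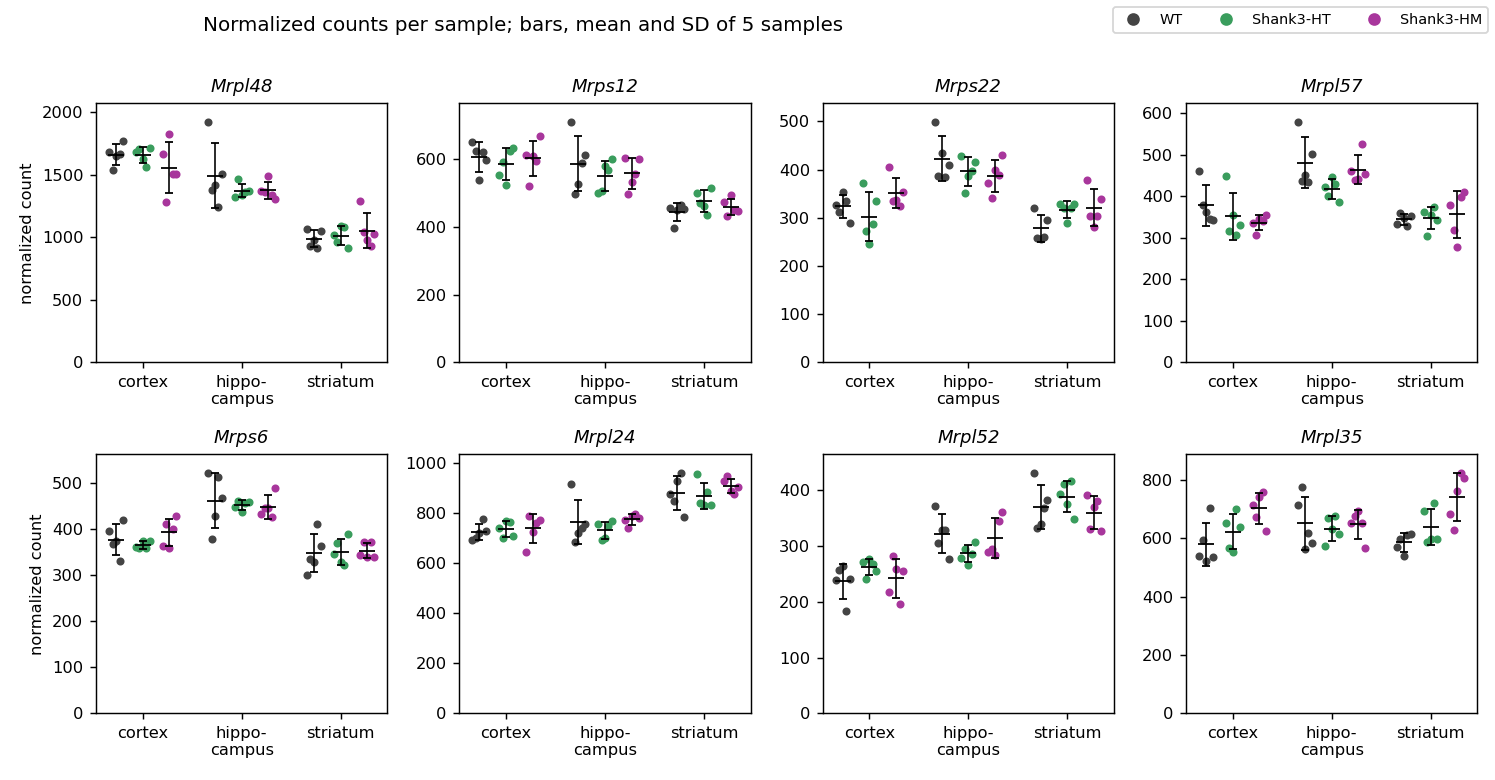
Normalized counts of selected members in each of the 45 samples, 1 point per sample, by region and genotype, with bars for the group mean and SD (n = 5). Mrpl48 has its lowest group means in striatum and Mrpl52 in cortex in all genotypes, while Mrpl35 lies higher in striatum Shank3-HM (627 to 821) than in striatum WT (537 to 614).

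Calls in both directions occurred in both subunits and in proteins with and without a bacterial homologue. Among the 29 Mrpl genes with a bacterial homologue, 3 were higher and 0 lower in hippocampus than in cortex, and among the 20 without, 7 were higher and 0 lower. Without hippocampus WT replicate 1 these counts were 1 higher and 4 lower with a homologue and 4 higher and 1 lower without. Between striatum and cortex the counts higher and lower were 2 and 4 with a homologue and 4 and 3 without, and for Mrps genes 2 and 4 of 18 with and 3 and 5 of 11 without. The 15 members altered in human mitochondrial disease had 3 higher and 0 lower in hippocampus than in cortex and 2 higher and 5 lower in striatum than in cortex. Beside these small counts stand the 23.3% of all genes higher and 23.3% lower in hippocampus than in cortex. Between striatum and cortex, 30% of all genes were higher and 29.3% lower. The subgroups given lay on either side of the shares higher in hippocampus and lower in striatum. They all lay below the shares lower in hippocampus and higher in striatum. The related Mrps18a, Mrps18b and Mrps18c, which occupy different sites, differed among themselves. In WT mice Mrps18b was lower in striatum than in cortex by −0.28 and passed, whereas Mrps18a (−0.09) and Mrps18c (0.15) did not pass there or in another pair. In Shank3-HM mice Mrps18c was higher in striatum than in hippocampus by 0.27 (limma adjusted p = 0.0498). Of the 31-base words of Mrps18b and Mrps18c, 31.6% and 34.5% are shared with other genes. Mrps36, now placed in the oxoglutarate dehydrogenase complex, gave −0.08 in striatum against cortex and passed in no pair in WT mice, and it was lower in hippocampus than in cortex by −0.20 in Shank3-HM mice (limma adjusted p = 0.043, and 0.062 without cortex Shank3-HM replicate 2).

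Promoter sequences were read for members that moved together or apart between regions. RefSeq starts on GRCm38.p6 were given for 69 of the 78 members, and the window taken was the 250 bases before the start. Of the 75 windows of these members, 57 held an annotated exon of the gene itself or of another gene. Shown are windows free of annotated exons for 3 members that were lower in WT striatum than in both other regions (Mrpl48, chr7:100608302-100608551, minus strand; Mrps22, chr9:98601680-98601929, minus strand; Mrpl58, chr11:115403502-115403751, plus strand) and for Mrpl52 (chr14:54426659-54426908, plus strand), which was lowest in cortex. For Mrpl48, which has 4 starts in the RefSeq table, the window shown is the one just ahead of the annotated gene. Each is written 5′ to 3′ toward the start, with matches to the motifs searched in capitals.
Mrpl48: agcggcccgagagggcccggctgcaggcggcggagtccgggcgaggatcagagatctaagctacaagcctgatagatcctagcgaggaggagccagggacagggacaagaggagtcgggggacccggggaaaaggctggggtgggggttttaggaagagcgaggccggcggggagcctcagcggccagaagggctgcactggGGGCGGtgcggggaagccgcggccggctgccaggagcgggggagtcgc
Mrps22: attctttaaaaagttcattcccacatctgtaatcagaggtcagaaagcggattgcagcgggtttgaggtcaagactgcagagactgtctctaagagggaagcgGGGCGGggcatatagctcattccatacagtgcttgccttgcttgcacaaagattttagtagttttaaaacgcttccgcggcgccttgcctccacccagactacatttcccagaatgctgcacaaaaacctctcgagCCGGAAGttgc
Mrpl58: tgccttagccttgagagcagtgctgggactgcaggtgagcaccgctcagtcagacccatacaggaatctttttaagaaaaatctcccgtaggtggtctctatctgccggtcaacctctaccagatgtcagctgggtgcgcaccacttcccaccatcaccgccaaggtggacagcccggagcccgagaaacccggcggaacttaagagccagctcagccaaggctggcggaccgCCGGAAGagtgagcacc
Mrpl52: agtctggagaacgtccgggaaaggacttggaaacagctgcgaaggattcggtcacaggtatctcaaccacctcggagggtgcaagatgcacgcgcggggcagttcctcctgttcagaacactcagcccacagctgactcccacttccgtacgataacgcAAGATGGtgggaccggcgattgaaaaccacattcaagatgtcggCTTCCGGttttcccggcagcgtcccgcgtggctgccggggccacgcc

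The motifs were searched on both strands, and for genes with several starts the window of lowest coordinate was counted, which for Mrpl48 is another one (chr7:100583131-100583380) that holds the ETS motif. The ETS factor motif CCGGAAG was in 26.1% of member windows (18 of 69), against 12.2% for genes of the deposited table and 7.14% of all windows of that length. It ends shortly before the start in Mrps22 and Mrpl58, lies on the opposite strand in Mrpl52 and is not in the Mrpl48 window shown. The NRF-1 motif (GCGCA, any base, GCGC) was in 14.5% (10 of 69, 9 of them Mrpl), against 7.13% and 3.77%, and the YY1 motif AAGATGG, found in Mrpl52, in 8.70% (6), against 4.07% and 4.50%. The NF-Y motif CCAAT was in 36.2%, against 35.6% and 34.2%, the Sp factor motif GGGCGG was in 46.4%, against 55.4% and 32.7%, and the TATA box letters TATAAA were in 5.80%, against 6.84% and 12.9%. The median GC content of member windows was 58.4%, beside 59.2% for genes of the table. A match is a description of letters, and no binding was measured.

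The main question of the series was what changes in the mutants. No mitochondrial ribosomal protein gene passed the limma test used here in any region in either genotype: 0 of 78 were called in each of the 6 comparisons with WT. Few genes were called at all, 0% of all genes in Shank3-HT cortex, 0.0121% in Shank3-HM cortex, 0.00603% in each genotype in hippocampus, 0.00607% in Shank3-HT striatum and 0.182% in Shank3-HM striatum, so the members' count does not set them apart. At an unadjusted limma p under 0.05 there were 2 and 3 members in cortex in Shank3-HT and Shank3-HM samples, among 443 and 907 of 16507 genes. In hippocampus there were 4 and 2, among 871 and 783 of 16571 genes. In striatum there were 2 and 3, among 1224 and 1225 of 16482 genes. The data bound the differences: the 95% intervals had a median width to each side of 0.165 in cortex, 0.187 in hippocampus and 0.173 in striatum on the log2 scale, which is 12.1%, 13.8% and 12.7% upward. For all 78 members in all 6 comparisons the intervals lay between −0.68 and 0.85. Both genotypes were compared with the same WT samples.

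**Figure D4:**
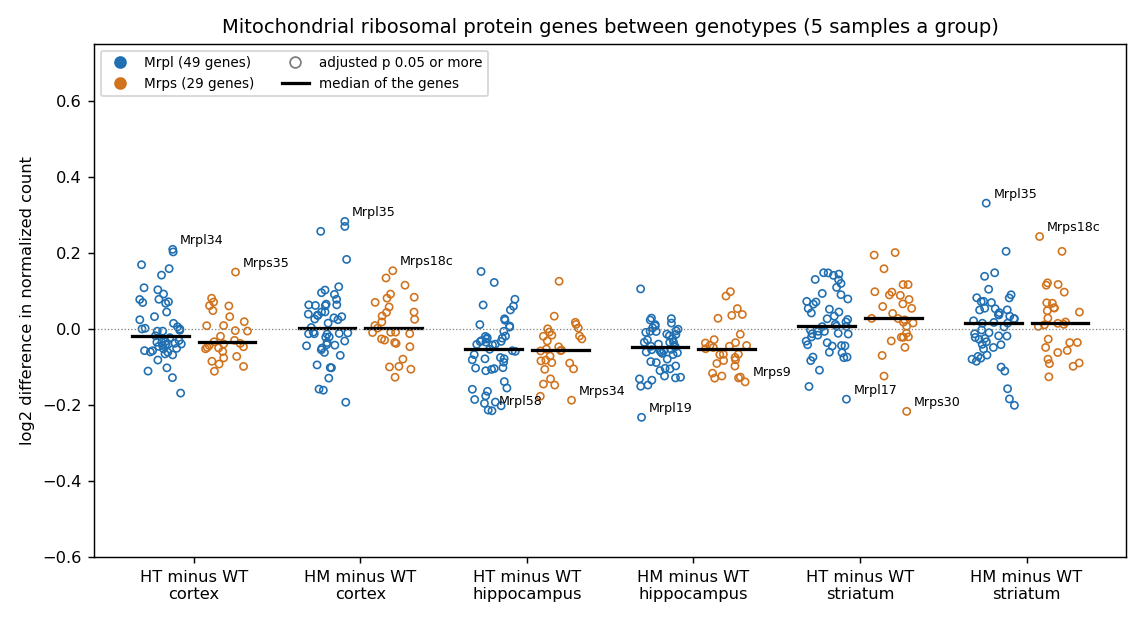
Fitted log2 difference from WT of each member in Shank3-HT and Shank3-HM samples by region, 1 point per gene, Mrpl and Mrps apart, with a line at the median. None of the 78 members passed the test in any of the 6 comparisons, and the hippocampal points lie mostly below 0, with 17 and 15 of 78 above it.

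The median differences were small. In cortex they were −0.02 for Mrpl and −0.03 for Mrps genes in Shank3-HT samples, and 0.00 for both in Shank3-HM samples. In striatum they were 0.01 and 0.03 in Shank3-HT and 0.02 and 0.02 in Shank3-HM samples. In hippocampus both genotypes gave −0.05 for Mrpl and −0.05 for Mrps genes, with 17 and 15 of 78 members above 0. All genes tested had medians between −0.01 and 0.01. With quantile normalization the Mrpl medians in Shank3-HM cortex and Shank3-HT striatum were −0.0068 and −0.0020, and the Mrps median in Shank3-HM cortex was also below 0, so that no direction can be given for them. The hippocampal shift went with WT replicate 1: without it, the Mrpl medians were 0.02 in both genotypes, with 30 and 32 of 49 genes above 0 instead of 11 and 9, and the Mrps medians were −0.00 and 0.01.

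**Figure D5:**
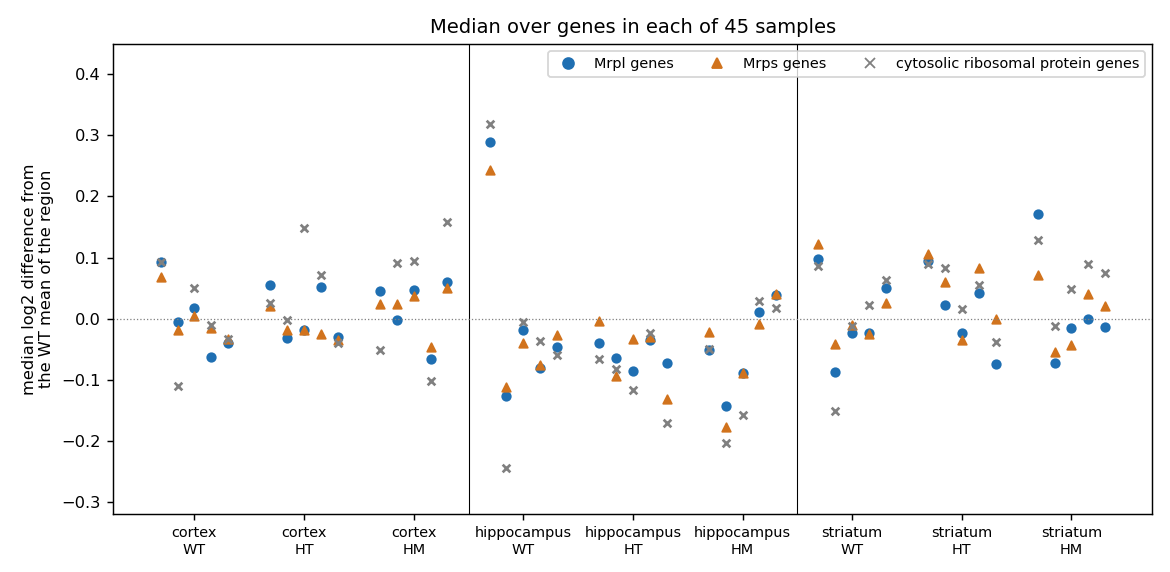
Median over Mrpl, Mrps and cytosolic ribosomal protein genes of each sample's log2 difference from the WT mean of its region, 1 symbol per sample and gene list, by region and genotype. Hippocampus WT replicate 1 stands at 0.29 for Mrpl and 0.24 for Mrps genes, against −0.13 to −0.02 and −0.11 to −0.03 in the other WT hippocampus samples.

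In that library the large and small subunit genes lay together above the regional WT mean, by 0.29 and 0.24 on the log2 scale. Cytosolic ribosomal protein genes (0.32) and nuclear genes of the respiratory chain (0.32) were high in it as well, mitochondrially encoded genes were low (−0.25), and all genes had a median of −0.00. Striatum Shank3-HM replicate 1 was the highest of its group for Mrpl genes (0.17), and without it the Shank3-HM medians in striatum were −0.04 for Mrpl and −0.00 for Mrps genes, with 0 members called. Without cortex Shank3-HM replicate 2, the library with striatal markers, the cortical medians were 0.02 and 0.01, with 0 called. Without striatum Shank3-HT replicate 5, the library with choroid plexus markers, the Shank3-HT medians in striatum were 0.03 and 0.04, with 0 called.

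Mrpl35, a large subunit protein with a bacterial homologue (chr6:71812997-71826969, minus strand), came closest to the threshold. It is on the study's own list for Shank3-HM striatum, which was drawn from these samples and is not independent of them. The study called genes with DESeq2 at an adjusted p under 0.05, so its test and limma differ on Mrpl35. They also differ on Shank3 in Shank3-HT cortex, which the study counts as lowered and which did not pass here. Its normalized counts in striatum were 569, 595, 537, 612 and 614 in WT, 693, 585, 595, 719 and 598 in Shank3-HT, and 683, 627, 761, 821 and 806 in Shank3-HM samples. All 5 Shank3-HM samples lay above all 5 WT samples, and the Shank3-HT samples overlapped both. The means were 585 ± 32.2, 638 ± 62.9 and 740 ± 82.7 (SD, n = 5 each). The log2 difference between Shank3-HM and WT was 0.33 (SE 0.083, 95% interval 0.16 to 0.51), with an adjusted p of 0.191 by limma, which ranged from 0.083 to 0.410 when 1 sample was left out and stayed above the threshold. In Shank3-HT striatum the difference was 0.12 (SE 0.083).

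In cortex, Mrpl35 counts were 538, 592, 521, 704 and 536 in WT, 653, 567, 554, 698 and 638 in Shank3-HT, and 712, 671, 741, 758 and 624 in Shank3-HM samples. WT replicate 4 lay within the Shank3-HM range, and the other WT samples lay below it. The Shank3-HM difference was 0.28 (SE 0.089, limma adjusted p = 0.878), and 0.30 without the library with striatal markers. In hippocampus, WT samples had 715, 775, 561, 617 and 582 and Shank3-HM samples 651, 674, 693, 650 and 565, which overlapped, with a difference of 0.00 (SE 0.087). The difference of the Shank3-HM effect between striatum and hippocampus was 0.33 for Mrpl35 (SE 0.125, limma adjusted p = 0.749) and did not pass.

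The other members with the smallest unadjusted p-values all had adjusted p-values above 0.5 by limma. In striatum these were Mrps18c (0.24, SE 0.093) and Mrps22 (0.20, SE 0.091) in Shank3-HM samples, and Mrps30 (−0.22, SE 0.10), Mrps22 (0.19) and Mrpl37 (−0.11) in Shank3-HT samples. In cortex they were Mrpl51 (0.26, SE 0.093) and Mrpl28 (−0.19) in Shank3-HM, and Mrpl34 (0.21, SE 0.086), Mrpl53 (0.17) and Mrpl39 (0.14) in Shank3-HT samples. In hippocampus they were Mrpl19 (−0.23, SE 0.107), Mrpl43 (−0.15) and Mrps9 (−0.14) in Shank3-HM, and Mrpl43 (−0.18, SE 0.073), Mrpl27 (−0.21) and Mrpl57 (−0.19) in Shank3-HT samples. Single libraries carried part of these: without hippocampus WT replicate 1, Mrpl19 gave −0.14 and Mrps9 −0.08 in Shank3-HM, and Mrpl27 −0.12 and Mrpl57 −0.13 in Shank3-HT samples. Mrpl43 gave −0.096 without hippocampus Shank3-HM replicate 3, and Mrpl28 −0.12 without cortex Shank3-HM replicate 4. Mrpl53 shares 84.4% of its 31-base words with Gm42688, and Mrpl43, Mrpl19 and Mrpl27 share 38.5%, 37.9% and 38.9% with other genes, so counts of these 4 are uncertain. Among members with known special roles, Mrpl12 differed from WT by −0.16 to 0.09 over the 6 comparisons, Mrps12 by −0.08 to 0.10 and Mrpl45 by −0.10 to 0.07.

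A test of whether the Shank3-HM effect differed between regions called 0 of 78 members for each pair, beside 0%, 0.0539% and 0.0718% of all genes for hippocampus against cortex, striatum against cortex and striatum against hippocampus. Their medians were −0.04, −0.00 and 0.04 for Mrpl genes and −0.08, 0.01 and 0.06 for Mrps genes. Without hippocampus WT replicate 1, the first and last of these were 0.01 and −0.03 for Mrpl and −0.01 and −0.01 for Mrps genes. The smallest p-value was that of Mrps9 between hippocampus and cortex (−0.22, limma adjusted p = 0.999).

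Other genes that make or use mitochondrial ribosomes showed as little in the mutants: 0 genes were called in any genotype comparison among 25 of mitoribosome assembly, 15 translation factors, 21 of aminoacyl-tRNA synthesis, 7 of mitochondrial transcription and 5 mitoribosomal proteins with other symbols. Between WT striatum and cortex, 5 assembly genes were higher and 5 lower, 1 translation factor higher and 3 lower, 5 genes of tRNA synthesis higher and 7 lower, and 3 transcription genes higher and 1 lower, beside the 30% and 29.3% of all genes given above. Several of these differed more than any ribosomal protein gene. Mterf2, which binds mitochondrial DNA, was higher in striatum than in cortex by 1.19 (SE 0.115), and Mrm1, a methyltransferase of the large ribosomal RNA, was lower by −1.15 (SE 0.137). Lars2 and Nars2, the mitochondrial leucyl- and asparaginyl-tRNA synthetases, differed by −0.99 and 0.83, and Mtrf1l, a release factor, by 0.78. Malsu1, an assembly factor of the large subunit, differed by 0.66, which is less than Mrpl48 did. Malsu1 and Mtrf1l did not pass in either mutant genotype, nor Lars2 in Shank3-HM mice. Dap3 and Aurkaip1, small subunit proteins with other symbols, were lower in striatum than in hippocampus by −0.26 and −0.18. Leaving out hippocampus WT replicate 1 gave −0.18, which passed, and −0.09, which did not.

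The 15 mitochondrially encoded genes did not follow the ribosomal protein genes between regions. In WT striatum 7 were higher than in cortex and 9 higher than in hippocampus, with 0 lower and medians of 0.36 and 0.64, led by mt-Nd4l (0.87) and mt-Cytb (0.78) against hippocampus, the latter 0.05 and not past the test after quantile normalization, whereas the member medians there were −0.12 for Mrpl and −0.10 for Mrps genes. Of all genes, 30% were higher and 29.3% lower in striatum than in cortex, and 27.8% and 28.3% in striatum than in hippocampus. In medians, nuclear genes of the respiratory chain came nearer to the members (0.10 between hippocampus and cortex, −0.14 between striatum and hippocampus). Of 82, 20 were higher and 1 lower in hippocampus than in cortex, beside 23.3% and 23.3% of all genes. In striatum 5 were higher and 29 lower than in hippocampus. With hippocampus WT replicate 1 left out these counts were 6 higher and 1 lower, and 9 higher and 17 lower. The medians were then 0.02 and −0.05. Of all genes, 22.6% and 22.6%, and 26.2% and 27.0%, were then higher and lower in these pairs. Cytosolic ribosomal protein genes were higher in hippocampus than in cortex in 41 of 79 with 0 lower (median 0.22), beside 23.3% and 23.3% of all genes. In striatum 27 were higher and 1 lower than in cortex (median 0.11), beside 30% and 29.3% of all genes. The members had 11 higher and 16 lower there (14.1% and 20.5%). Without that library, 26 cytosolic genes were higher and 1 lower in hippocampus than in cortex (median 0.14), and for the mitochondrially encoded genes 9 were still higher in striatum than in hippocampus (median 0.49).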

How the data were processed

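RNA-seq had been made from 45 samples, 5 for each of 3 regions and 3 genotypes, with a stranded poly(A) kit. According to the labels and the study's methods, the authors quantified reads with Salmon 1.1.0 against GRCm38 with GC bias correction, summed transcripts to genes with tximport and normalized with DESeq2. The submitters' processing notes name DESeq2 1.26.0 and R 3.6.2 as the authors' versions, and the methods name others. The deposited values are a signal per gene, normalized counts that are not whole numbers, from which neither whole reads nor depth could be recovered, so no count model was fitted. Sharing of sequence between genes can shift such estimates, and 31-base words were therefore compared between GENCODE M21 transcripts: 3 members share over 50% of theirs with other genes, 29 over 10% and 16 none.

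Values were analysed as log2(value + 1), where folds of low genes are understated, in limma 3.58.1 (R 4.3.3; lmFit, eBayes with an intensity trend) over all genes with a mean of at least 10, with Benjamini-Hochberg adjustment over all of them and a threshold of 0.05. Genotypes were compared within a region in a fit of its 15 samples, and regions and the difference of the Shank3-HM effect between regions in 1 fit of 9 groups. The scripts were checked on simulated data. Of the 18135 gene identifiers, 18120 were in GENCODE M21. Python 3.11.15 handled the tables.

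The members, gene lists and tests were chosen with earlier results of these data known. Genes named are those past the test for a genotype or for its difference between regions, the 3 members with the smallest unadjusted p per genotype comparison, the 5 largest non-overlapping region differences per direction, Mrpl35, members with known roles or misleading symbols, those nearest the limit of 10 and the 2 largest region differences of each other list. Other genes listed by regional pattern or by calls in all genotypes were named after their values were seen. Alternatives were quantile normalization, equal totals, no filter, a pseudocount of 0.1, a mean limit of 100, no intensity trend, a replicate block, only the groups compared, each sample left out in turn, other subunit assignments and, chosen after seeing the data, region contrasts in mutant mice, also without the libraries with striatal or choroid plexus markers.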

Additional observations from a re-analysis of the deposited data

Results flagged for a closer look

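Within each group of 5 samples, a sample was looked at again when the gap to its nearest neighbour exceeded Dixon's critical value of 0.71 as a share of the group's range. This was met in 16 of 297 groups examined (5.39%), and chance alone gives about 1 in 20. Named members were examined, and the medians of the Mrpl and Mrps genes per sample.

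Hippocampus WT replicate 1 was set apart by the Mrpl median (gap over range 0.739), the Mrps median (0.760), Mrpl44 (518 against 394 to 418, 0.806) and Mrpl27 (746 against 501 to 565, 0.740). Striatum Shank3-HM replicate 1 was set apart by the Mrpl median (0.71) and by Mrpl27 (680 against 535 to 559, 0.834). Cortex Shank3-HM replicate 4 had the lowest Mrps median of its group (−0.05 against 0.02 to 0.05, 0.723). Cortex Shank3-HM replicate 2, the library with striatal markers, was low for Mrpl58 (512 against 678 to 745, 0.714).

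The other samples were set apart by 1 gene each. In cortex WT these were replicate 2 for Mrpl23 (149 against 81.2 to 94.3, 0.808) and replicate 1 for Mrpl45 (744 against 656 to 675, 0.780). In hippocampus they were Shank3-HT replicate 5 for Mrpl12 (790 against 837 to 849, 0.791) and Shank3-HM replicate 4 for Mrpl57 (526 against 439 to 460, 0.757). In striatum they were WT replicate 2 for Mrps12 (398 against 451 to 465, 0.795), Shank3-HT replicate 5 for Mrps18c (242 against 285 to 299, 0.753), Shank3-HT replicate 3 for Mrps22 (288 against 320 to 328, 0.80) and Shank3-HM replicate 5 for Mrps30 (670 against 449 to 507, 0.741).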

How the results depend on the processing

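In the 6 genotype comparisons and the 3 comparisons of the Shank3-HM effect between regions, 0 members passed in every alternative run, and Mrpl35 in Shank3-HM striatum kept its direction (limma adjusted p 0.115 to 0.290 under the planned settings). Between hippocampus and cortex, equal totals gave 31 members, all 31 higher. Lower members numbered 1 with quantile normalization, 3 in Shank3-HT mice and 4 in Shank3-HM mice, in which 8 were higher. Between striatum and hippocampus, equal totals gave 1 higher member and an Mrps median of −0.22, a fit of only the groups compared gave 18 in all and 15 lower, Shank3-HT mice gave 7 higher and 16 lower, and Shank3-HM mice 9 higher and 17 lower. Between striatum and cortex, Shank3-HT mice gave an Mrps median of 0.0083, and Mrps22 changed direction there (0.083). The causes were not tested. No depth limit can be stated, since the reads per sample are unknown.

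With 1 sample left out, members called between hippocampus and cortex numbered 10 to 19 (10 to 19 higher, 0 to 6 lower), between striatum and cortex 24 to 28 (10 to 12 higher, 13 to 16 lower) and between striatum and hippocampus 23 to 33 (4 to 8 higher, 16 to 29 lower). The 6 lower members between hippocampus and cortex, and the 8 higher and 16 lower between striatum and hippocampus, came without hippocampus WT replicate 1. The Mrps median of the Shank3-HM effect in striatum against cortex ran from −0.018 to 0.063, the latter without striatum WT replicate 1.

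The sample numbers were checked for pairing by correlating the deviations from group means over genes. Between regions 27 of 45 same-numbered pairs exceeded 0.1 (r −0.22 to 0.40) and 25 of 45 samples correlated best with their own number, and between genotypes 15 of 45 pairs exceeded 0.1 (−0.21 to 0.32) and 14 samples correlated best with their own number. Between hippocampus and striatum, 12 of 15 pairs exceeded 0.1 (median r 0.20, against −0.05 for other numbers), a hint from the data and not from the design. The labels tie no number to a mouse and not every pair exceeded 0.1, so the fits without the block are the ones reported. With the number as a replicate block, 0 members were called in each genotype comparison and 19, 28 and 31 in the 3 region comparisons (19 higher and 0 lower, 12 and 16, 4 and 27), beside 25% and 25%, 31.4% and 30.2%, and 29.1% and 29.6% of all genes, and no call among the named results changed.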
